A study of Mus musculus with 7 samples.

Results

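Binding of the transcription factors ATF4 and CEBPB was compared in primary mouse dermal fibroblasts after 3 h of thapsigargin, from the peak list that the authors deposited for each factor. All peaks of both lists on chromosomes 1 to 19 and X were taken, with peaks on the mitochondrial sequence and on chromosome Y left out. That left 10067 of 10109 ATF4 peaks and 7851 of 7861 CEBPB peaks, together 17918 of the 25287 peaks deposited over all 3 lists of the series.

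The libraries used here came from an ATF4 ChIP and a CEBPB ChIP of thapsigargin-treated cells, RNA of treated cells, RNA of untreated cells, and bisulfite sequencing of untreated cells. There was 1 library per group, except for 2 bisulfite libraries that the deposited methylation table pools. All cells were dermal fibroblasts of female FVB/N mice grown for 8 days in medium with fetal bovine serum, and nothing in the labels gives the number of animals or cultures behind a library. The labelled antibodies were CREB-2 C-20 for ATF4 and CEBP B C-19 for CEBPB. Thapsigargin blocks the pump that fills the endoplasmic reticulum (ER) with calcium and so causes ER stress. With 1 library per factor no difference between the lists has a replicate check and no test was made: each share carries a 95% Wilson interval, which covers counting error only.

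The total reads of the libraries were not given in the sources used here, so peak numbers cannot be set against depth. Of 10 fibroblast markers, 9 were listed at 1 FPKM (fragments per kilobase and per unit of sequencing depth) or more in treated RNA and 10 in untreated RNA, with a summed level of 3026 FPKM in treated and 14760 FPKM in untreated RNA. Of 7 macrophage and leukocyte markers, 5 were at 1 FPKM or more in both RNA libraries, with sums of 1072 FPKM in treated and 1005 FPKM in untreated RNA, mostly from Lyz2 (951 FPKM in treated and 880 FPKM in untreated RNA). None of 5 keratinocyte and none of 4 endothelial markers reached 1 FPKM in treated RNA; in untreated RNA 4 of the 5 keratinocyte markers did, with sums of 1.75 FPKM in treated and 14.1 FPKM in untreated RNA. Of 3 muscle markers, 3 were at 1 FPKM or more in both libraries, with sums of 27.3 FPKM in treated and 52.2 FPKM in untreated RNA. Of 4 melanocyte and Schwann cell markers 1 reached 1 FPKM in treated and 2 in untreated RNA, mainly Sox10 (4.31 FPKM in treated and 23.4 FPKM in untreated RNA), and of 3 adipocyte markers 1 did in each. In such bulk samples fewer cells of a type and less RNA per cell cannot be told apart, and the part of cells of these types in any result was not tested. Peaks in sequence with near copies elsewhere in the genome made up 915 ATF4 peaks (9.09%) and 910 CEBPB peaks (11.6%). In such copied peaks at least 10% of the 32-base words of the central 200 bp occur at another place, and results that they move are given with and without them.

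ATF4 and CEBPB are both bZIP proteins, which bind DNA as pairs through a basic region and a leucine zipper. ATF4 is made when ER stress or amino acid shortage activates the kinases of the integrated stress response, and it pairs with C/EBP proteins on composite elements that join an ATF site to a C/EBP site. CEBPB binds palindromic C/EBP elements as a homodimer and is known for its part in inflammatory responses. Most mammalian promoters lie in CpG islands, stretches rich in CpG that usually stay unmethylated, while most CpG elsewhere in the genome is methylated.

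Sequences of 30 bases show the words on which the comparison of the lists turns. They were read from the mm9 genome (NCBIM37) on the stated strand, with the word in capitals. The following 8 lie in high-ranked ATF4 peaks that overlap a CEBPB peak, and their capitals mark TGATGCAA or the same word with another base in its sixth position. They were chosen because they hold that word and lie at a transcript start. The word was in 15.4% of the 267 shared uncopied ATF4 peaks. It was also in the shared ATF4 peaks of ranks 17 and 29, which lie away from starts and are not printed.
Chac1, chr2:119176774-119176803, minus strand: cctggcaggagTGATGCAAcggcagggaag
Asns, chr6:7643214-7643243, minus strand: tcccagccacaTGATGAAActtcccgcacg
Trib3, chr2:152169764-152169793, plus strand: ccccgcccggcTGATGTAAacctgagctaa
Herpud1, chr8:96910206-96910235, minus strand: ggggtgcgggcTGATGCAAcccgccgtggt
Mthfd1l, chr10:6372764-6372793, minus strand: gcctccggctcTGATGCAAccgcgccgggc
Yars, chr4:128867139-128867168, plus strand: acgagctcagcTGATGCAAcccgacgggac
Mars, chr10:126748694-126748723, plus strand: ggagcccacgcTGATGCAAtcggaaccggc
Ddit3, chr10:126727537-126727566, minus strand: gggggcggggaTGATGCAAtgtttggcaac

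ATF4 peaks with no overlapping CEBPB peak held the same word at the starts of Eif1, Cars and Slc38a2, printed as examples of it outside shared peaks. In the ATF4 top 200 TGATGCAA was in 14 of 57 shared and 10 of 59 unshared uncopied peaks.
Eif1, chr11:100181814-100181843, minus strand: ccccacccggcTGATGCAAcctaccggaag
Cars, chr7:150785950-150785979, plus strand: cttccagaatcTGATGCAAccgcggcgccg
Slc38a2, chr15:96529597-96529626, plus strand: ccgggaggaacTGATGCAAtaccgaggggc

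The next sequences lie in high-ranked CEBPB peaks with no overlapping ATF4 peak and were chosen because they hold a word. It is the composite word beside Wdr67 and Sesn2, and a C/EBP palindrome-type word of the form TTGCNNAA at Runx2, Nfe2l1 and Htra1. In the CEBPB top 200 TGATGCAA was in 31 of 118 unshared uncopied peaks. Over the whole list TTGCNNAA was in 22.6% of the 6666 unshared uncopied CEBPB peaks. The capitals mark the word.
Wdr67, chr15:57738397-57738426, minus strand: tggctgccagcTGATGCAAaaccaggcaat
Sesn2, chr4:132070014-132070043, minus strand: tttaacacggcTGATGCAAgagtccagaga
Runx2, chr17:44846998-44847027, plus strand: gtcccagactcTTGCACAAcgcaaaatgcc
Nfe2l1, chr11:96684098-96684127, plus strand: tgccactgcatTTGCATAAaggggtggggt
Htra1, chr7:138086937-138086966, plus strand: ttcttccctggTTGCGCAAtgagctctcta

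The bulk of the ATF4 list held none of these words. The central 30 bases of 3 ATF4 peaks ranked just below 200 show the CpG-rich start sequence that most of that list consists of, with each CG in capitals. They were chosen among uncopied peaks at starts that overlapped no CEBPB peak and held none of TGATGNAA, TGACGCAA, TTGCNNAA and TGACGTCA.
Wdr4, chr17:31649129-31649158, plus strand: ggctaggaacCGgctgcctcctCGcaccac
Fbxo9, chr9:77956382-77956411, plus strand: gCGtCGgcccagcaggagaCGtctggaCGc
Sac3d1, chr19:6118139-6118168, plus strand: tggctaagagcactggCGgCGgcCGcagca

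ATF4 peaks lay mostly at transcript starts and CEBPB peaks mostly away from them. A transcript start of the GENCODE vM1 annotation, of any transcript class, lay within 1000 bp of 7409 ATF4 peaks (73.6%, 95% interval 72.7 to 74.5%) and of 851 CEBPB peaks (10.8%, interval 10.2 to 11.6%). Introns held 7.36% of ATF4 and 37.0% of CEBPB peaks, and sequence outside annotated genes held 13.1% of ATF4 and 48.8% of CEBPB peaks. Coding exons without a nearby start held 5.36% of ATF4 and 1.92% of CEBPB peaks. The median gap between peak edge and nearest start was 41 bp (quartiles 0 and 1456 bp) for ATF4 and 20950 bp (quartiles 6182 and 61510 bp) for CEBPB.

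The ATF4 peaks at starts lay over and just after them, with a median centre 64 bp downstream (quartiles -19 and 196 bp). The peak centre lay within 100 bp of a start in 34.2% of ATF4 peaks and 3.35% of CEBPB peaks, and within 500 bp in 67.8% of ATF4 and 7.45% of CEBPB peaks. Among the peaks at starts, the centre lay upstream of the nearest start in 31.3% of ATF4 peaks (interval 30.3 to 32.4%) and in 51.5% of CEBPB peaks (interval 48.1 to 54.8%). The nearest start belonged to a protein-coding gene for 95.05% of the ATF4 and 78.4% of the CEBPB peaks at starts. ATF4 peaks were also the wider ones, with a median width of 266 bp against 172 bp in the CEBPB list. Each list had its own lowest width, 197 bp for ATF4 (15.6% of its peaks) and 155 bp for CEBPB (31.6% of its peaks).

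**Figure D1:**
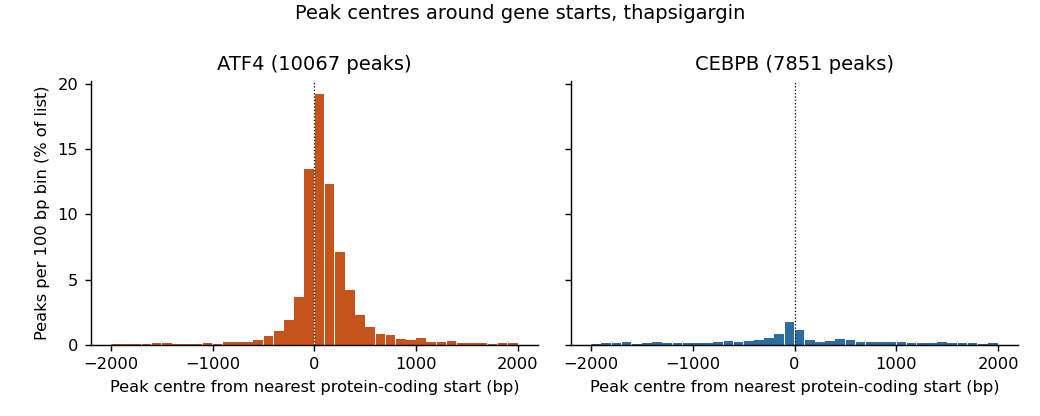
Peak centres around the nearest protein-coding transcript start, as the percentage of each list per 100 bp bin (ATF4 left, 10067 peaks; CEBPB right, 7851 peaks; same vertical scale), with positions after the start to the right. The ATF4 centres pile up over and just after the start, while the CEBPB centres show a low rise around it.

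Distances to the loci of the deposited FPKM tables gave the same order. Of the ATF4 peaks, 7857 (78.0%) touched a listed locus, and 3466 CEBPB peaks (44.2%, interval 43.1 to 45.3%) did. Another 6.27% of ATF4 and 3.12% of CEBPB peaks lay under 1000 bp from one. At the far end, 7.59% of ATF4 and 25.8% of CEBPB peaks were 10000 to 100000 bp from the nearest locus, and 4.13% of ATF4 and 16.9% of CEBPB peaks were farther. An end of a locus lay within 1000 bp of 68.8% of ATF4 peaks and 8.55% of CEBPB peaks. The locus nearest to a peak had a median treated level of 4.51 FPKM for ATF4 and 1.72 FPKM for CEBPB, and was at 1 FPKM or more for 70.2% of ATF4 and 55.4% of CEBPB peaks.

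The ATF4 list was also the more clustered one along the chromosomes. The median gap to the nearest peak of the same list was 44450 bp for ATF4 and 88380 bp for CEBPB, and 22.0% of ATF4 and 8.78% of CEBPB peaks had another peak of their list within 10 kb. Chromosome 11 was densest for ATF4 (6.15 peaks per Mb against 3.82 over all) and chromosome 13 for CEBPB (3.67 per Mb against 2.97 over all). Chromosome X had the fewest peaks per Mb in both lists, 1.40 for ATF4 and 1.15 for CEBPB.

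ATF4 peaks were rich in CpG and their CpG was unmethylated, whereas CEBPB peaks were poor in CpG and mostly methylated. The ratio of observed to expected CpG in the peak, which corrects for base composition, had a median of 0.868 (quartiles 0.717 and 0.972) for ATF4 and 0.202 (quartiles 0.0953 and 0.361) for CEBPB. Genome tiles of 200 bp had a median of 0.145, and 200 bp windows at protein-coding starts 0.537. ATF4 peaks held a median of 10.6 CpG per 100 bp and CEBPB peaks 1.16, at a GC content of 70.1% in ATF4 and 49.0% in CEBPB peaks. The central 200 bp was CpG-rich, with a GC content of at least 50% and a ratio of at least 0.6, in 81.4% of ATF4 peaks (interval 80.7 to 82.2%) and 5.99% of CEBPB peaks (interval 5.48 to 6.53%), against 0.985% of genome tiles and 44.0% of start windows. No CpG was present in 428 ATF4 and 1375 CEBPB peaks.

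Methylation was measured in untreated cells, so it describes the sites before the drug. The 9530 ATF4 peaks with a listed CpG had a median methylation of 0.172% (quartiles 0.0571 and 1.92%), and the 6385 CEBPB peaks with one had a median of 60.25% (quartiles 28.75 and 79.5%). Under 10% methylation were 80.1% of these ATF4 and 13.5% of these CEBPB peaks. Between 10 and 50% lay 5.78% of ATF4 and 27.5% of CEBPB peaks, and 14.1% of ATF4 and 59.1% of CEBPB peaks were at 50% or more. The listed percentages carry no coverage, and the median CEBPB peak rests on 4 listed cytosines where the median ATF4 peak rests on 56.

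**Figure D2:**
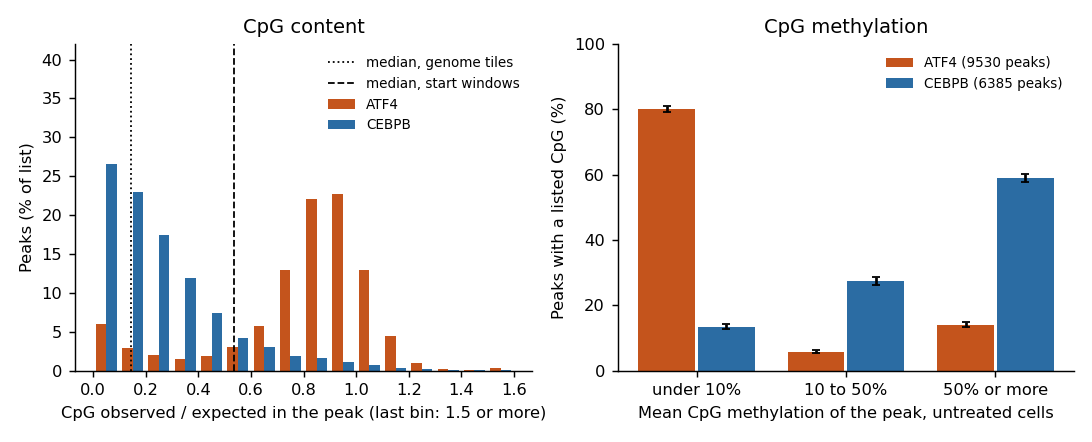
Left, the ratio of observed to expected CpG in ATF4 (orange) and CEBPB (blue) peaks as the percentage of each list per bin, with the medians of genome tiles (0.145) and start windows (0.537) as lines. Right, the share of peaks in 3 classes of mean CpG methylation of untreated cells, with 95% Wilson intervals: most ATF4 peaks are under 10% and most CEBPB peaks at 50% or more.

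Away from starts the median methylation of the lists was closer, but ATF4 peaks with unmethylated CpG were still the more frequent ones. The 2658 ATF4 peaks away from starts had a median methylation of 57.25% (quartiles 2.22 and 83.25%) and a CpG ratio of 0.492, and the 7000 CEBPB peaks away from starts had 64.0% (quartiles 36.25 and 80.5%) and 0.188. Of those with a listed CpG, 32.8% of 2138 ATF4 and 7.46% of 5590 CEBPB peaks were under 10% methylation. Copied peaks moved the ATF4 value: without them, in a split added after seeing the data, the medians were 37.45% methylation and a ratio of 0.614 for ATF4, and 63.3% methylation and a ratio of 0.193 for CEBPB, with 41.2% of 1620 ATF4 and 7.18% of 5067 CEBPB peaks under 10%. At starts the medians were 0.109% methylation and a ratio of 0.901 for ATF4, and 3.38% methylation and a ratio of 0.470 for CEBPB. CpG-rich windows made up 96.1% of ATF4 and 35.1% of CEBPB peaks at starts, and 40.5% of ATF4 and 2.44% of CEBPB peaks away from them. At 50% methylation or more stood 2.52% of the ATF4 and 26.4% of the CEBPB peaks at starts. Of the 795 CEBPB peaks at starts with a listed CpG, 55.6% were under 10% methylation and 18.0% between 10 and 50%.

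Over wide blocks of the ranking, better-scored peaks were less methylated in both lists. Scores are the authors' own values and were ranked only within a list. In 4 blocks of falling score, the ATF4 medians were 0.114, 0.145, 0.200 and 0.433%, and the CEBPB medians 31.3, 59.9, 69.25 and 75%. The share of peaks at starts fell along the same blocks, with 82.3, 78.9, 72.4 and 60.8% in the ATF4 list and 17.7, 9.78, 8.81 and 7.03% in the CEBPB list. Low methylation and position at a start go together in both lists, so these 2 trends are not fully separate measurements. In the CEBPB list, however, starts were a small part of every block. Of its peaks with a listed CpG, 45.2% in the first and 14.1% in the last block were between 10 and 50% methylation. The methylation trend was not split by position. At the top of the ATF4 list the order differed. Without copied peaks, 72.0, 70.0 and 77.5% of its ranks 1 to 50, 51 to 100 and 101 to 200 were at starts. The share was 89.8% in its ranks 201 to 500.

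Few peaks were common to the lists. By at least 1 shared base, 441 ATF4 peaks (4.38%, interval 3.998 to 4.80%) overlapped a CEBPB peak and 460 CEBPB peaks (5.86%, interval 5.36 to 6.40%) overlapped an ATF4 peak. Copied sequence held 174 of the 441 ATF4 and 185 of the 460 CEBPB peaks that overlapped. Without copied peaks the shares were 2.92% of 9152 ATF4 peaks and 3.96% of 6941 CEBPB peaks, and the centres of such overlapping peaks lay a median of 70 bp apart as counted from the ATF4 peaks and 78 bp as counted from the CEBPB peaks. Overlap was split by position in opposite ways: at starts it took in 166 of 7222 ATF4 peaks (2.30%) and 165 of 759 CEBPB peaks (21.7%), and away from starts 101 of 1930 ATF4 peaks (5.23%) and 110 of 6182 CEBPB peaks (1.78%).

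The uncopied shared peaks at starts were unmethylated in both lists. Their median methylation was 0.0714% in ATF4 and 0.0625% in CEBPB peaks, their CpG ratio 0.885 in ATF4 and 0.863 in CEBPB peaks, and the locus nearest to them had a median treated level of 13.7 FPKM for ATF4 and 12.8 FPKM for CEBPB peaks. Away from starts, the shared uncopied peaks had a median methylation of 50.2% in the ATF4 list and 44.4% in the CEBPB list. Shared copied peaks had a median of 61.6% in the ATF4 and 63.3% in the CEBPB list, and lay a median of 15330 bp (ATF4) and 14570 bp (CEBPB) from the nearest start.

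Overlap was concentrated at the top of the ATF4 ranking. Without copied peaks, 92.0% of the 25 ATF4 peaks in ranks 1 to 50 overlapped a CEBPB peak, then 70.0% of 20 in ranks 51 to 100, 28.2% of 71 in ranks 101 to 200 and 7.30% of 274 in ranks 201 to 500. The share was 1.78% in the 4556 lowest-ranked ATF4 peaks. The CEBPB ranking started lower and declined more slowly, with 19.4% of 31 peaks in ranks 1 to 50, 23.7% of 38 in ranks 51 to 100, 22.0% of 82 in ranks 101 to 200 and 11.7% of 265 in ranks 201 to 500. Copied peaks were themselves frequent at the top: they made up 50 and 60% of ATF4 ranks 1 to 50 and 51 to 100, and 38 and 24% of the same CEBPB ranks.

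**Figure D3:**
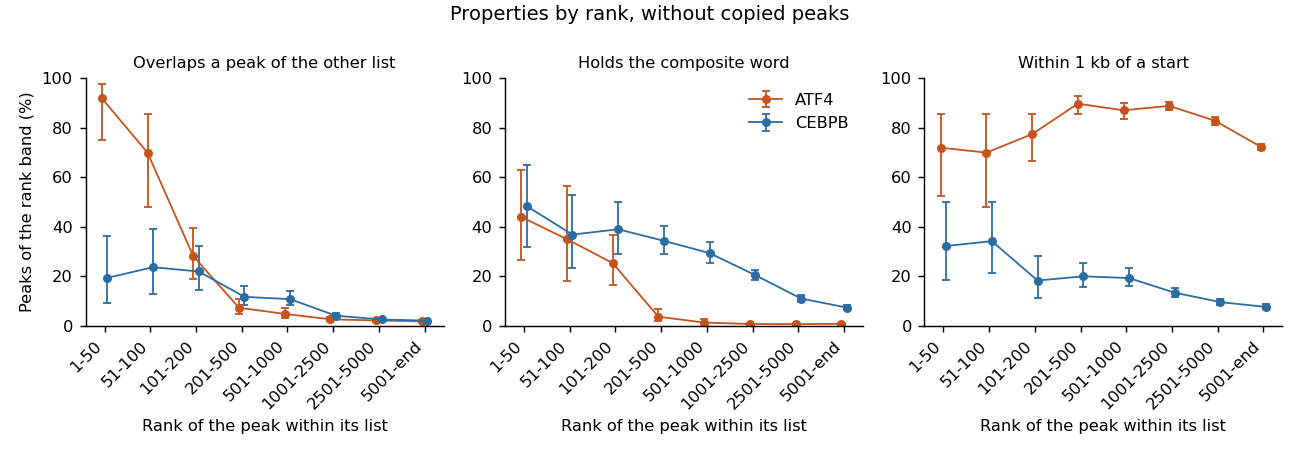
Share of peaks in bands of rank within each list, without copied peaks, that overlap the other list (left), hold the composite word with any base in its sixth position (middle) or lie within 1 kb of a start (right), for ATF4 (orange) and CEBPB (blue) with 95% Wilson intervals. The ATF4 shares for overlap and word drop between rank 100 and rank 500, and the CEBPB shares decline over the whole list. The ATF4 share at starts is higher in ranks 201 to 500 (89.8%) than in the bands above it.

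The composite word TGATGCAA, as on the lines for Chac1 and Herpud1, was found on either strand in the central 200 bp of 57 ATF4 peaks (0.566%, interval 0.437 to 0.733%) and in 7.66% of CEBPB peaks, against 0.620% of genome tiles, 0.440% of start windows and 0.166% of CpG-rich start windows. Over the whole ATF4 list its share was close to that of genome tiles and above that of CpG-rich start windows. Of those 57 ATF4 peaks, 24 stood in ranks 1 to 200. Its looser form TGATGNAA, which includes TGATGCAA, was in 1.18% of ATF4 and 13.1% of CEBPB peaks, with 3.68% in genome tiles and 0.667% in CpG-rich start windows. By ATF4 rank it was in 44.0% of uncopied peaks in ranks 1 to 50, 35.0% in ranks 51 to 100, 25.4% in ranks 101 to 200, 3.65% in ranks 201 to 500 and 0.746% in the lowest band. In the CEBPB list it was in 48.4, 36.8, 39.0 and 34.3% of the same 4 top bands and in 7.38% of the lowest one.

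The open base of TGATGNAA was not spread evenly. In the ATF4 top 200 it was C in 24 of 36 peaks, A in 8, T in 4 and G in none, and the word stood a median of 28.5 bp from the peak centre. In the CEBPB top 200 it was C in 40 of 61 peaks, A in 15, T in 5 and G in 1, a median of 16 bp from the centre. Further down, C filled it in 40.8% of 76 ATF4 and 56.4% of 924 CEBPB peaks. The base before the word was C in 23 of the 36 ATF4 peaks, as on the lines for Trib3, Herpud1 and Mars, and in 25 of the 61 CEBPB peaks.

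TGACGCAA, which joins a CRE-type (cyclic AMP response element) arm to a C/EBP arm and contains a CpG, was more frequent at the top of the ATF4 ranking than at the top of the CEBPB ranking. It was in 0.477% of ATF4 and 1.54% of CEBPB peaks, against 0.0504% of genome tiles, 0.435% of start windows and 0.800% of CpG-rich start windows. By ATF4 rank it was in 8, 20 and 11.3% of the uncopied peaks of the first 3 bands and in 0.132% of the last. In the CEBPB list it was in 3 of the 151 uncopied peaks of the top 200, in 3.81% of the 446 in ranks 501 to 1000, and in 0.589% of the lowest band. TGATGNAA or TGACGCAA together were in 48 of the 116 uncopied ATF4 peaks of the top 200, in 24 of the 57 that overlapped a CEBPB peak (42.1%) and in 24 of the 59 that did not (40.7%). In the CEBPB top 200 they were in 62 of 151 uncopied peaks, 13 of the 33 that overlapped an ATF4 peak and 49 of the 118 that did not. Below rank 200 they were in 17.1% of the 210 shared and 0.838% of the 8826 unshared ATF4 peaks, and in 28.5% of the 242 shared and 14.7% of the 6548 unshared CEBPB peaks.

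C/EBP palindrome-type words were more frequent in CEBPB peaks. TTGCNNAA was in 2.10% of ATF4 and 20.7% of CEBPB peaks, against 9.35% of genome tiles. Of its forms, TTGCACAA was in 0.159% of ATF4 and 5.76% of CEBPB peaks, TTGCGCAA in 0.139% of ATF4 and 2.32% of CEBPB peaks, and TTGCATAA in 0.0894% of ATF4 and 1.53% of CEBPB peaks. CpG-rich start windows held TTGCACAA in 0.169%, TTGCGCAA in 0.205% and TTGCATAA in 0.146%, each within the interval of the ATF4 share. TTGCGCAA, which holds a CpG, was in only 0.0161% of genome tiles. It was in 5.52% of CEBPB peaks at starts and 1.93% of those away from starts.

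The words common in ATF4 peaks were those of CpG-rich starts. GGGCGG, the core of the Sp1 site, was in 49.9% of ATF4 and 4.25% of CEBPB peaks, and in 63.6% of CpG-rich start windows. CCGGAAG, an ETS site, was in 6.64% of ATF4 and 1.24% of CEBPB peaks and in 15.6% of CpG-rich start windows. The full CRE word TGACGTCA was in 1.23% of ATF4 and 0.446% of CEBPB peaks and in 2.83% of CpG-rich start windows. None of these 3 was more frequent in ATF4 peaks than in CpG-rich start windows. The AP-1 word TGAGTCA, bound by FOS and JUN dimers, was in 1.28% of ATF4 and 8.53% of CEBPB peaks. Its share was 3.11% in genome tiles and 1.28% in CpG-rich start windows.

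The 10 best-scored ATF4 peaks all overlapped a CEBPB peak. Chac1 (score 244.66, centre 192 bp upstream of the start), Asns (213.62, 55 bp upstream), Gars (175.41, 75 bp downstream) and Trib3 (129.44, 8 bp upstream) were the unmethylated start peaks among them, with 0.0571 to 0.746% methylation. The others lay in sequence with 26.2 to 76.5% methylation, such as an intron of Cdk5rap2 and a site 60782 bp from Axin2, and 3 of those 6 were copied. Of the 10 best-scored CEBPB peaks 7 overlapped an ATF4 peak, 5 of which were copied. The 3 others lay 5316 bp upstream of Wdr67 (score 103.37), in an intron of Ccdc109a (93.76) and 3545 bp upstream of Sesn2 (93.48), and each held TGATGCAA.

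Of the 15 highest uncopied ATF4 peaks without a CEBPB peak, all but the one 1588 bp upstream of Apbb2 (rank 61) were at a start. They included Eif1 (rank 39), a factor of start codon choice, Psat1 (rank 47), an enzyme of serine synthesis, and Pitpnb (rank 58), a lipid transfer protein. Cars (rank 93) and Eprs (rank 103), which are aminoacyl-tRNA synthetases, and Slc38a2 (rank 97), an amino acid transporter, were also among them, as were Pde4dip, Dhrs7, Armc5, Larp1, Tpst2 and Jdp2. The highest uncopied CEBPB peaks without an ATF4 peak, besides the 3 above, included those at the starts of Runx2 (rank 14), a factor of bone formation, Nfe2l1 (rank 15), a bZIP regulator of proteasome genes, and Htra1 (rank 20), a secreted protease. Peaks ranked 12 and 19 lay 2968 bp upstream of Irf2bp2 and 26417 bp from the locus of Id3.

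Of 20045 genes with a protein-coding start and 1 FPKM entry, 6968 had an ATF4 peak within 1000 bp of a start (34.8%) and 696 a CEBPB peak (3.47%). Both factors were at a start of 390 genes, which were 5.60% of the ATF4 genes and 56.0% of the CEBPB genes. Counted over FPKM entries, a peak touching the locus or within 10 kb was present for 42.8% of 23431 entries for ATF4 and 17.7% for CEBPB. The members of 9 gene lists are read against these shares; since the lists were chosen with earlier results of these data known, no test was made on them.

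Integrated stress response targets and tRNA synthetases were the lists where both factors were frequent. Of 40 targets of ATF4 and of its partner CHOP (Ddit3), 29 (72.5%) had an ATF4 peak at a start, 21 (52.5%) a CEBPB peak and 16 both. Of 20 cytosolic aminoacyl-tRNA synthetases, which charge tRNA with amino acids, 15 (75%) had an ATF4 peak, 12 (60.0%) a CEBPB peak and 10 both. All 20 synthetase starts and 33 of the 40 target starts were CpG-rich. Of all genes with a CpG-rich start, 54.2% had an ATF4 and 4.68% a CEBPB peak, so the CEBPB shares of these lists stand further from that background than the ATF4 shares.

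Of 30 ER chaperones and genes of ER-associated degradation, 24 (80.0%) had an ATF4 peak at a start, 3 (10.0%) a CEBPB peak and 2 both. The starts of all 30 were CpG-rich, a class of which 54.2% had an ATF4 and 4.68% a CEBPB peak. The ATF4 peaks there were low in the ranking apart from Herpud1 (rank 11), a ubiquitin-like protein of the ER membrane, with Calr next at rank 279 and Sel1l at 455. Calr is a calcium-binding chaperone and Sel1l a part of the ER degradation complex. Within 10 kb of the locus, 26 had an ATF4 and 10 a CEBPB peak, with the CEBPB peaks of Edem1 (rank 200), an ER degradation factor, and Sel1l (rank 484) in introns.

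Genes for bZIP factors and immediate early genes were mostly CpG-rich at their starts (38 of 41 and 24 of 26), and are likewise set against the 54.2% and 4.68% of that class. An ATF4 peak was at a start of 32 of 41 bZIP genes (78.0%), a CEBPB peak at 10 (24.4%) and both at 7. Of 26 immediate early genes, which respond first to growth factors and stress, 17 (65.4%) had an ATF4 peak, 3 (11.5%) a CEBPB peak and 2 both. Among the immediate early genes Ier2 had overlapping peaks of ATF4 (rank 1708) and CEBPB (rank 213).

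Cytokine and matrix genes had the lowest shares for ATF4, and also the lowest shares of CpG-rich starts. Of all genes, 54.2% with a CpG-rich start and 4.73% with another start had an ATF4 peak there, so these low shares are not read as a trait of the genes. Of 28 cytokine, chemokine and acute phase genes, 7 (25%) had an ATF4 peak and 1 (3.57%) a CEBPB peak at a start, and 7 of the 28 starts were CpG-rich. Of 26 collagen and matrix genes, 6 (23.1%) had an ATF4 and 1 (3.85%) a CEBPB peak at a start, and none had both. Of these 26 starts, 13 were CpG-rich. Within 10 kb of matrix loci CEBPB was the more frequent factor, with 6 genes (23.1%) for ATF4 and 10 (38.5%) for CEBPB. Of all entries, 42.8% had an ATF4 and 17.7% a CEBPB peak. This count takes in peaks anywhere inside a locus and was not adjusted for locus length. The best of the CEBPB peaks were in introns of Fbln1 (rank 65), Fbln2 (rank 533) and Col3a1 (rank 620). Ribosomal protein genes had 19 of 35 starts with ATF4 (54.3%) and 3 with CEBPB (8.57%), and 14 housekeeping genes 8 with ATF4 (57.1%) and 2 with CEBPB (14.3%). CpG-rich were 34 of these 35 ribosomal and 13 of the 14 housekeeping starts, so their ATF4 shares were near the 54.2% of that class. The CEBPB share of that class was 4.68%.

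**Figure D4:**
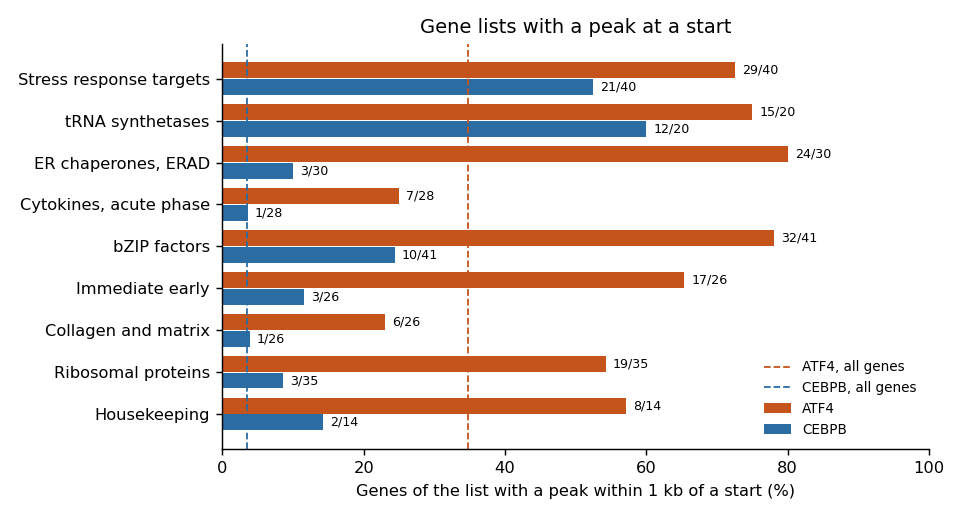
Share of the genes of 9 lists with an ATF4 (orange) or CEBPB (blue) peak within 1 kb of a protein-coding start, with counts beside the bars; the dashed lines are the shares of all genes, 34.8% for ATF4 and 3.47% for CEBPB. The 2 top lists have long bars for both factors, and the ER list has 24 of 30 for ATF4 and 3 of 30 for CEBPB. Of genes with a CpG-rich start, which the lines do not show, 54.2% had an ATF4 and 4.68% a CEBPB peak.

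Chac1, Asns, Trib3 and Herpud1 carried overlapping peaks of both factors. Chac1, which breaks down glutathione, had ATF4 rank 1 (chr2:119176520-119177026, score 244.66) and CEBPB rank 75 (score 45.6), with 0.746% methylation in the ATF4 and 0.318% in the CEBPB peak. Its RNA was at 168 FPKM in treated and 16.8 FPKM in untreated cells. Asns, asparagine synthetase, had ATF4 rank 4 and CEBPB rank 801 (score 13.86), and its RNA was at 67.9 FPKM in treated and 75.8 FPKM in untreated cells. Trib3, a pseudokinase that curbs ATF4 and CHOP, had ATF4 rank 9 and CEBPB rank 110, at 156 FPKM in treated and 69.2 FPKM in untreated cells. Herpud1 had ATF4 rank 11 and CEBPB rank 976, at 471 FPKM in treated and 55.6 FPKM in untreated cells.

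Among the bZIP genes, Cebpg, Ddit3, Cebpb and Atf3 carried overlapping peaks of both factors. Cebpg, a partner of ATF4, had ATF4 rank 35 and CEBPB rank 2160. Ddit3, which encodes CHOP, had ATF4 rank 38 (score 68.51) and CEBPB rank 2362 (score 7.28), with RNA at 735 FPKM in treated and 82.9 FPKM in untreated cells. The gene of CEBPB itself had overlapping peaks inside the transcribed region, ATF4 rank 79 with its centre 1178 bp after the start and CEBPB rank 1568 at 1231 bp, and its RNA was at 211 FPKM in treated and 33.4 FPKM in untreated cells. Atf3, a repressor induced by stress, had ATF4 rank 280 and CEBPB rank 431. Both peaks of Ddit3, Cebpb and Atf3 held TGATGCAA.

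The Atf4 gene had an ATF4 peak of rank 3000 and no CEBPB peak within 10 kb, while its RNA was at 849 FPKM in treated and 208 FPKM in untreated cells. Cebpd, a further C/EBP gene, was alike, with ATF4 rank 4096, no CEBPB peak within 10 kb, and RNA at 145 FPKM in treated and 25.7 FPKM in untreated cells.

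At several stress genes the factors had peaks at separate places. At Sesn2, a brake on mTORC1, the best ATF4 peak (rank 2242, 0.0862% methylation) was 423 bp after the start and the CEBPB peak (rank 7, 19.5% methylation) 3545 bp before it. At Hspa5, which encodes the main ER chaperone BiP, the ATF4 peak (rank 1025, 0.0741% methylation) lay inside the listed locus. Its centre was 227 bp upstream of the annotated start of the gene nearest to it. The CEBPB peak (rank 186, 69.5% methylation on 2 listed cytosines) lay before the locus, 1733 bp upstream of a different annotated start. RNA of Hspa5 was at 4978 FPKM in treated and 354 FPKM in untreated cells. At Vldlr, a lipoprotein receptor, the best ATF4 peak (rank 620) was at the start and overlapped a lower-ranked CEBPB peak, and the best CEBPB peak (rank 145, 39.75% methylation) lay beyond the locus, 22035 bp after the nearest annotated start. At Ppp1r15a, which encodes GADD34, the phosphatase subunit that restores translation, ATF4 had rank 734 (0.109% methylation) and CEBPB rank 2201 (70.5% methylation on 4 listed cytosines), and the peaks did not overlap. At Ddit4, an inhibitor of mTORC1, ATF4 (rank 9258, 0.0294% methylation) stood 136 bp before the start and CEBPB (rank 4445, 50.9% methylation) 8055 bp from it. At Ptgs2, described with the inflammatory genes, methylation was in the other order, 3.22% in the ATF4 and 0.583% in the CEBPB peak.

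CEBPB alone was at Slc7a11, the cystine transporter (rank 771, centre 8 bp after the start, 1.25% methylation), and at Nupr1, a stress-induced chromatin protein (rank 1425, 109 bp after the start, 4.38% methylation). Both peaks held TGATGCAA, and neither gene had an ATF4 peak within 10 kb. RNA of Nupr1 was at 655 FPKM in treated and 132 FPKM in untreated cells, and that of Slc7a11 at 5.25 FPKM in treated and 1.90 FPKM in untreated cells. Nupr1 and Slc7a11 are listed as targets of the integrated stress response, so not every textbook target had a peak in the ATF4 list.

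Among inflammatory and matrix genes, neither factor had a peak within 10 kb of Il6, Ccl2 or Col1a1, although their RNA differed between the libraries. Ccl2, a monocyte attractant, was at 2118 FPKM in treated and 76.0 FPKM in untreated cells, Il6 at 30.7 FPKM in treated and 1.63 FPKM in untreated cells, and Col1a1, a chain of collagen I, at 884 FPKM in treated and 6473 FPKM in untreated cells. At Ptgs2, the inducible prostaglandin synthase, the ATF4 peak (rank 5328) lay 92 bp after the start and the CEBPB peak (rank 246), with the word TTGCGCAA, 149 bp before it. Lcn2, an acute phase gene at 0.114 FPKM in treated and 0.501 FPKM in untreated RNA, had no CEBPB peak within 10 kb. An ATF4 peak of rank 4669 lay 8471 bp before its start, but at another annotated start. Of the controls, Actb had an ATF4 peak of rank 1540 at its start and no CEBPB peak, and Gapdh had a peak of neither factor. Gapdh, a glycolytic enzyme that every cell uses, is listed at 0.179 FPKM in treated and 170.5 FPKM in untreated RNA, and Ppia, a housekeeping prolyl isomerase, at 0.0999 FPKM in treated and 544 FPKM in untreated RNA. Whether such low treated values are failed estimates was not tested, which limits every level given for 1 gene.

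Peaks at starts were sorted further by CpG class and RNA level. An ATF4 peak was at 6595 of 12167 genes with a CpG-rich start (54.2%) and 373 of 7878 with another start (4.73%), and a CEBPB peak at 4.68% of the CpG-rich and 1.61% of the other genes. The ratio between start classes was thus larger for ATF4. Within CpG-rich starts the ATF4 share was 19.1% for genes listed at 0 FPKM in treated RNA, 42.3% above 0 and under 1 FPKM, 56.9% from 1, 61.4% from 10 and 62.0% from 100 FPKM (interval 56.3 to 67.3%). Over the same levels the CEBPB share was 1.64, 2.58, 4.51, 6.31 and 9.09% (interval 6.32 to 12.9% in the last). The ATF4 share was thus level above 10 FPKM, while the CEBPB shares kept the order of the RNA levels with overlapping intervals at the top.

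**Figure D5:**
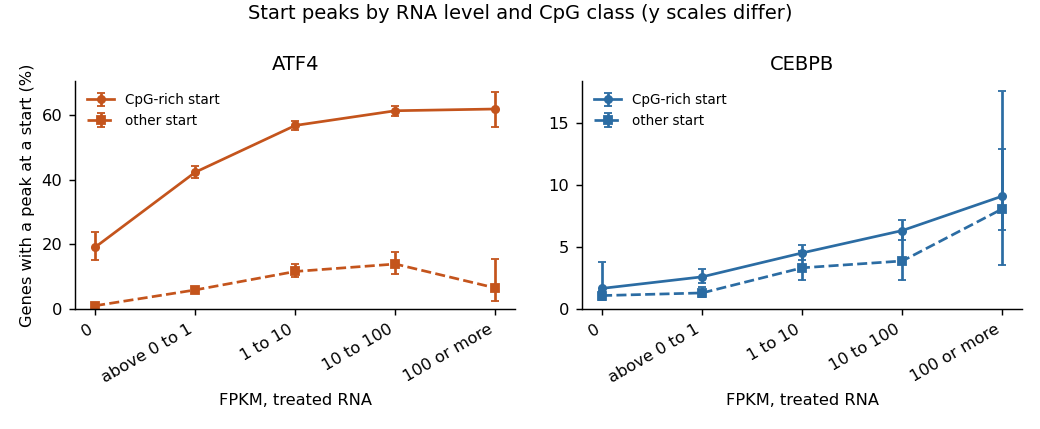
Share of genes with a peak at a start by the FPKM of the gene in treated RNA, for ATF4 (left) and CEBPB (right, on a smaller vertical scale), with CpG-rich starts as solid and other starts as dashed lines and 95% Wilson intervals. ATF4 shares of CpG-rich starts run between 19.1 and 62.0%, far above those of other starts, and the 2 CEBPB lines lie close together.

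The RNA libraries were last compared by the factors at a gene's start, a comparison added after the binding results were seen. It covers the 11638 genes with 1 FPKM entry and a protein-coding start whose level reached 1 FPKM in at least 1 of the libraries. Only genes with the FPKM status OK in both libraries were kept. With 1 RNA library per condition the comparison has no replicate check. The difference is log2(FPKM + 1) in treated minus untreated RNA, a scale that understates changes of low genes. Its median over all these genes was -0.53, with 651 genes (5.59%) higher by at least 1 and 3318 (28.5%) lower by at least 1. Single genes are therefore read against a shift towards lower values in the treated library.

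Genes with both factors at a start were higher by at least 1 in 30 of 359 cases (8.36%, interval 5.92 to 11.7%) and lower in 79 (22.0%), with a median difference of -0.33. With ATF4 alone, 265 of 5546 genes were higher (4.78%, interval 4.25 to 5.37%) and 1464 lower (26.4%), at a median of -0.48. With CEBPB alone, 19 of 216 were higher (8.80%, interval 5.70 to 13.3%) and 54 lower (25%), at a median of -0.47. With neither, 337 of 5517 were higher (6.11%, interval 5.51 to 6.77%) and 1721 lower (31.2%), at a median of -0.60. An ATF4 peak at a start by itself thus went with no larger share of higher genes than in all genes. Among CpG-rich starts alone, 28 of 349 genes with both factors were higher (8.02%), 255 of 5358 with ATF4 alone (4.76%), 11 of 165 with CEBPB alone (6.67%) and 178 of 3996 with neither (4.45%). Among other starts, 159 of 1521 genes with neither were higher (10.45%).

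Only the top of the ATF4 ranking had a larger share of higher genes, while the share of lower genes was smallest there and largest in the lowest band. The 86 genes whose best ATF4 start peak was in ranks 1 to 200 had a median difference of -0.10, 12 higher genes (13.95%, interval 8.17 to 22.8%) and 17 lower (19.8%). In ranks 201 to 1000 there were 5.79% higher and 23.5% lower of 656 genes, and in ranks 1001 to 2500 4.97% higher and 24.8% lower of 1188. Ranks 2501 to 5000 had 3.97% higher and 25.2% lower of 1662 genes, and the lowest band 5.19% higher and 28.5% lower of 2313. Of uncopied ATF4 peaks, 49.1% in ranks 1 to 200 and 2.32% below overlapped a CEBPB peak. The bands were not split by CEBPB, so a high ATF4 rank and the presence of both factors were not told apart. For CEBPB, 3 of 38 genes in ranks 1 to 200 and 16 of 130 in ranks 201 to 1000 (12.3%, interval 7.72 to 19.1%) were higher, and 10 of 120 in the lowest band (8.33%). Lower by at least 1 were 7 of 38 CEBPB genes in ranks 1 to 200, 18 of 130 in ranks 201 to 1000 (13.85%, interval 8.94 to 20.8%) and 35 of 120 in the lowest band (29.2%, interval 21.8 to 37.8%). The intervals of the higher CEBPB genes overlap, and those of the lower genes do not overlap between ranks 201 to 1000 and the lowest band.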

How the data were processed

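The authors aligned the ChIP reads to mm9, with CASAVA 1.7, BWA and SAMtools named per the submitters' processing notes; no source used here gives the peak caller's settings or its control, and the names in the deposited CEBPB list start with MACS. The score of each peak is the authors' own and its definition is not stated, so it was used for ranks within a list only. FPKM values were deposited by the authors, with CASAVA 1.8.2 and Bowtie named for RNA per the submitters' processing notes. The deposited methylation table gives a percent per cytosine, pooled over 2 libraries by the authors with no coverage (CASAVA 1.8 and Novoalign per the submitters' processing notes). Cytosines marked heterozygous were left out, and 98.649% of the listed CpG rows on chromosomes 1 to 19 and X lie at a CG of NCBIM37, the mm9 sequence.

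Starts are those of all GENCODE vM1 transcripts. CpG was counted over the whole peak, words on both strands of the central 200 bp, against all 200 bp tiles and the 69930 windows at protein-coding starts. TGATGNAA includes TGATGCAA, and TTGCNNAA includes TTGCACAA, TTGCGCAA and TTGCATAA; the other words can overlap each other only in part. Loci are the entries of the FPKM tables (23431 joined on chromosomes 1 to 19 and X). Intervals of shares are Wilson intervals at 95%. Those of medians, used only to judge the alternatives, are binomial intervals at 95%. Python 3.11.15, numpy 2.4.6, pandas 2.3.3, scipy 1.17.1, numba 0.67.0 and matplotlib 3.10.9 were used, and the counting steps were tested on simulated data.

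The members and gene lists were chosen with earlier results of these data known. Named peaks are the 10 best-scored of each list, the 5 best-ranked overlapping pairs, up to 4 best-scored members of each gene list and 25 set genes. The copied-sequence filter, the rank bands, the words TGATGNAA and TTGCNNAA, the RNA comparison, the named uncopied peaks without the other factor and the choice of printed sequences were made after seeing the data.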

Additional observations from a re-analysis of the deposited data

Results flagged for a closer look

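Peaks outside the chromosomes compared were present in the deposited lists. The ATF4 list held 32 peaks on the Y chromosome, with scores of 2.54 to 36.23, although the cells are labelled as coming from female mice; the CEBPB list held 0 there. The mitochondrial sequence held 10 ATF4 peaks, with scores of 8.07 to 38.18, and 10 CEBPB peaks, with scores of 10.14 to 67.77. All were left out of every value above.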

How the results depend on the processing

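In all 30 alternatives run on 6 results the lists kept their order (ATF4 then CEBPB in each pair), and the values moved beyond counting error in 28 for ATF4 and 24 for CEBPB. Median methylation (0.172 and 60.25%) was 0.926 and 66.5% within 500 bp, 57.25 and 64.0% away from starts, 37.45 and 63.3% there without copied peaks, 0.156 and 57.6% with at least 4 listed cytosines, and 0.149 and 59.25% without copied peaks. The CpG ratio (0.868 and 0.202) was 0.760 and 0.188 over 1000 bp, 0.880 and 0.200 over 200 bp, 0.894 and 0.221 in the higher-scored 50% of each list, 0.492 and 0.188 away from starts, 0.614 and 0.193 there without copied peaks, and 0.879 and 0.207 without copied peaks. TGATGCAA (0.566 and 7.66%) was in 0.358 and 5.82% within 100 bp, 0.854 and 11.8% in the higher-scored 50%, 0.745 and 7.58% over whole peaks, and 0.623 and 8.30% without copied peaks. The share at starts (73.6 and 10.8%) was 80.6 and 13.75% in the higher-scored 50%, 72.8 and 10.4% by the centre, 71.6 and 8.72% with protein-coding starts only, 76.8 and 15.8% at 2500 bp, 70.1 and 8.18% at 500 bp, and 78.9 and 10.9% without copied peaks. Overlap (4.38 and 5.86%) was 2.99 and 3.83% for centres within 100 bp, 6.35 and 8.10% for gaps up to 1000 bp, 5.32 and 7.23% among the higher-scored 50%, 3.93 and 5.29% for 50% of the shorter peak, and 2.92 and 3.96% without copied peaks. The share touching a locus (78.0 and 44.2%) was 88.3 and 57.3% with gaps up to 10000 bp, 82.6 and 44.3% in the higher-scored 50%, 59.3 and 26.9% for loci at 1 FPKM or more, and 81.5 and 45.3% without copied peaks. The alternatives without copied peaks and with protein-coding starts were added after seeing the data. Leaving out peaks in soft-masked repeats was not run, since the genome sequence used holds no such marks. No paired analysis was possible because each factor has 1 library and no result comes from a test. Depth was not given, and 1 library per factor limits every comparison.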
